A study of Drosophila melanogaster with 5 samples.

Results

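Tumors of a scrib mutant with Ras overexpression were compared with control eye-antennal discs of Drosophila melanogaster larvae, 1 array for each. These are 2 of the 5 arrays of the series, chosen by their labels, and the comparison is the log2 difference of the scrib array minus the WT control array for each probe set that names exactly 1 gene (13646 of 18952). Tumor clones were marked with GFP by MARCM, a genetic method that leaves mutant cells labelled among unlabelled neighbours, and total RNA of third-instar tissue was labelled with biotin. The scrib allele, the form of Ras, the driver and the way tumors were taken from the disc are not given by the labels. The scrib tumors served as the positive control of the series, by its design text. The control discs are labelled WT control and 79E control, a code that the labels do not explain. Tumors of Sras mutant 1 with Ras and of Sras mutant 2 with Ras, 1 array each, share the Ras overexpression with the scrib tumors, and their levels are set beside those of the scrib array. The array of Ras alone was not used. With 1 array a side there is no replicate, no test and no error, so every difference is between single arrays and not between conditions.

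The gene scrib encodes a scaffold protein that sets the basolateral side of epithelial cells together with the products of dlg1 and l(2)gl. Clones that lack scrib in a disc are normally removed by their neighbours, and cells that lack scrib and carry activated Ras are a textbook model of invasive tumors in the fly eye disc. Studies of such tumors centre on the stress kinase JNK, on the cytokines of the JAK/STAT pathway, on the growth regulator Yorkie and on a delay of metamorphosis. The eye-antennal disc itself forms the adult eye, antenna and head capsule, and photoreceptors arise in it behind a moving front, the morphogenetic furrow.

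Levels are log2 values after quantile normalization, which gives the arrays the same distribution. A level below 6.31 was treated as not distinguishable from background and raised to that floor before a difference was taken. Of 112 odorant and gustatory receptor genes, which discs are not known to use, 109 lay below the floor in both arrays. A difference that touches the floor is a bound, given as "or more" or "or lower". A number in brackets after a gene is its log2 difference, scrib minus WT control, and paired values of the Sras arrays give mutant 1 and then mutant 2. As guides to the spread, the arrays of Sras mutant 1 and Sras mutant 2 differed with an SD of 0.223 log2 units over 7087 genes, and probe sets of 1 gene disagreed in their scrib minus WT control difference by a median of 0.388 over 355 genes. Where the median of a list moved by over 1.5 times across the normalizations, floors and probe set rules tried, its range over them follows it. A stricter floor below means the 50th percentile of gene levels. The number of arrays limits the precision. Control probe sets near the 3′ and 5′ ends of the actin, eIF-4a and GAPDH transcripts differed by 0.80, 0.79 and 1.05 in the scrib array and by 0.77, 1.10 and 1.13 in the WT control array.

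Of 11981 genes, 766 (6.39%) had a scrib level 2-fold or more above control, 957 (7.99%) a level 2-fold or more below it, and 14.4% either. Counted over probe sets these shares were 6.52% and 7.47%. The median difference over all genes was 0, and 4288 genes were below the floor in both arrays. With 2-fold as the limit, these shares are the background for each gene list below, and a list near them shows nothing about its members. Genes below the floor in both arrays have a difference of 0 and count in these shares. For a list with few such genes the shares are therefore a low background.

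The gene scrib itself was read by 5 probe sets. The one with the highest level read 11.30 in the scrib array against 10.56 in the WT control array, and the other 4 differed by −0.88, −0.09, 0.12 and 0.44. Since the lesion is not given, the level does not check the label. The Sras gene, which encodes a CAAX-box protease, read 9.65 in the scrib array against 9.56 in the WT control array.

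Among genes above the floor in both arrays, the 15 named ones with the largest excess in scrib tumors included genes of secreted signals and stress. The gene spz3, which encodes a ligand of the Spatzle family, read 11.38 in the scrib array against 6.92 in the WT control array, a difference of 4.46 or 22-fold, with 11.15 and 11.63 in the Sras arrays. The FGF ligand gene bnl, known for guiding tracheal branches, read 11.11 in scrib and 6.84 in WT control (4.27). Its 2 dimmer probe sets, below the floor in WT control, gave 2.04 or more and 0.33 or more. Gadd45, a stress-response gene induced by JNK, read 11.13 in scrib and 7.10 in WT control (4.03). Pepck1, which encodes an enzyme of gluconeogenesis, read 14.06 in scrib and 10.03 in WT control (4.03). The activin-like ligand gene daw read 12.32 in scrib and 8.65 in WT control (3.68), where the Sras arrays read 7.21 and 8.44. The other named genes with the highest differences were Ude (4.17), Cyp6a17 (3.89) of the cytochrome P450 family, Rcd2 (3.77), Dgp-1 (3.73), Tdc1 (3.66), a tyrosine decarboxylase gene, Rcd6 (3.61), the serpin gene Spn47C (3.59), vir-1 (3.53), Cyp4p1 (3.39) and the cuticle gene Cpr64Ac (3.38).

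Another set of genes read above the floor in scrib tumors and below it in control discs. Ilp8, the relaxin-like peptide gene through which damaged discs delay metamorphosis, read 11.19 in the scrib array against 5.01 in the WT control array, a difference of 4.89 or more. Ets21C, an ETS-family transcription factor gene linked to JNK, read 9.25 in scrib and 5.19 in WT control. The others with the highest scrib levels were GstE5 (10.01 in scrib and 6.24 in WT control), tut (9.92 in scrib and 5.99 in WT control), Cyp6a23 (9.61 in scrib and 5.74 in WT control), Cyp6a20 (9.19 in scrib and 4.19 in WT control), BBS8 (9.04 in scrib and 5.97 in WT control), dpr18 (8.99 in scrib and 5.98 in WT control), gsb-n (8.94 in scrib and 6.20 in WT control) and Tektin-C (8.68 in scrib and 4.01 in WT control).

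**Figure D1:**
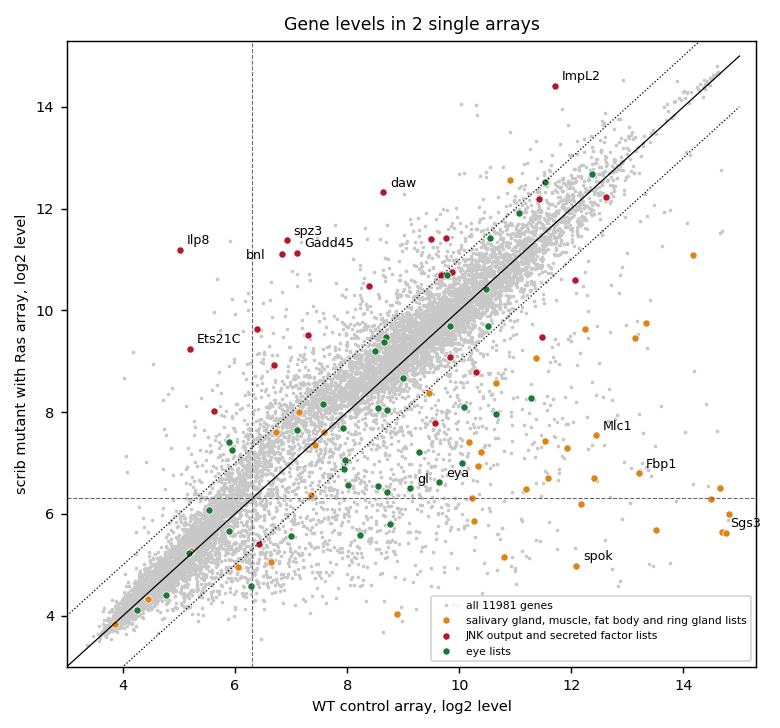
Log2 level of 11981 genes in the scrib mutant with Ras array (vertical) and the WT control array (horizontal), with the line of equal levels (solid), 2-fold limits (dotted) and the floor of 6.31 (dashed). Ilp8, spz3, bnl, daw and Gadd45 lie far above the line, and Sgs3, spok, Fbp1 and Mlc1, genes of other larval tissues, lie far below it.

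Many of the genes furthest below control were known from other larval organs. The glue gene Sgs3, made by the salivary gland, read 5.65 in the scrib array against 14.70 in the WT control array, at least 335-fold lower. Of the 15 named genes with the lowest differences and both levels above the floor, Sgs5 (−8.15), Sgs1 (−5.69) and Eig71Ee (−6.98) are salivary gland genes, Fbp1 (−6.40) is a fat body receptor gene, and Mlc1 (−4.89), Zasp66 (−5.24) and l(2)efl (−5.26) are active in muscle. The remaining ones were Vajk2 (−6.50), Peritrophin-15b (−6.40), Nplp4 (−6.15), Cpr78E (−5.92), nol (−5.82), Peritrophin-15a (−5.49), Obp99b (−5.37) and fau (−4.90). Genes below the floor in scrib tumors with the highest control levels were Sgs7, Sgs8, Sgs3, Sgs4 and Sgs5bis, the odorant-binding protein genes Obp56d and Obp56a, the cuticle genes Lcp9 and Lcp65Ac, and ImpE2. Their levels were 4.69 to 6.28 in the scrib array, against 12.88 to 14.81 in the WT control array.

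Marker lists gave values for whole tissues. All 11 salivary gland markers were at least 2-fold lower in scrib tumors (median −7.20), and their summed signal was 11.04 in the scrib array, 11.06 and 12.72 in the Sras arrays and 17.36 in the WT control array, in log2. Of these markers 6 were below the floor in the scrib array and 0 in the WT control array. Larval muscle markers were lower for 9 of 13 genes (median −3.39; summed signal 10.46 in scrib and 14.42 in WT control), and 5 were below the floor in scrib and 2 in WT control. A ring gland list, mostly of ecdysone synthesis genes, was lower for 5 of 9 (median −2.09, range −2.12 to −1.25). Its summed signal was 9.94 in scrib and 13.42 in WT control. The list also holds Akh, Ptth and tor, which do not encode enzymes of ecdysone synthesis, and its median was the value of Akh. The enzyme gene spok read 4.98 in scrib and 12.08 in WT control. The other lower ones were sad (−4.09), sro (−3.92), nvd (−2.58 or lower) and Akh (−2.09). Fat body markers were lower for 5 of 8 (median −1.85; summed signal 13.37 in scrib and 15.44 in WT control), while FASN1, a fatty acid synthase gene that is not limited to fat body, was higher (1.65). The lower ones were Fbp1 (−6.40), Fbp2 (−3.68), the storage protein gene Lsp2 (−3.08), the lipoprotein gene apolpp (−2.61) and Jhbp1 (−1.10), and Lpin (0.87) and Apoltp (0.03) stayed within 2-fold.

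Brain and blood cell lists had members lower as well. Neuroblast markers were lower for 4 of 6 genes (summed signal 11.77 in scrib and 12.37 in WT control), led by wor (−3.30 or lower), a factor of brain stem cells, ase (−2.80 or lower), mira (−2.45) and dpn (−1.57), with insc higher (1.42) and grh at 0.13. Glia markers were lower for 6 of 9 (summed signal 12.47 in scrib and 13.72 in WT control), with the glial identity gene repo at 6.74 in scrib and 9.69 in WT control and moody higher (1.38). Neuron markers were lower for 5 of 12 (summed signal 10.17 in scrib and 11.65 in WT control). The stricter floor brought nSyb to −0.89, ChAT to −0.67 and futsch to −0.31, all short of 2-fold. The brain insulin genes Ilp2 (6.36 in scrib and 9.16 in WT control) and Ilp5 (5.40 in scrib and 8.93 in WT control) were lower too. Hemocyte and crystal cell markers were lower for 7 of 16 (summed signal 12.86 in scrib and 14.07 in WT control). Of crystal cell genes, PPO2 read 9.69 in scrib and 12.46 in WT control and PPO1 9.01 in scrib and 11.71 in WT control. The other lower ones were eater (−1.99), NimC2 (−1.89 or lower), Pxn (−1.38), srp (−1.34) and He (−1.28). The stricter floor moved NimC2 to −0.56. Within 2-fold stood Nplp2 (0.83), Sr-CI (0.45), mthl4 (0.34), NimC1 (0.15 or more), crq (−0.02), ush (−0.13), atilla (−0.18) and Hml (−0.97). PPO3 was below the floor in both arrays. Gut markers were mostly below the floor in both arrays (12 of 18), and 2 were lower, among them Jon65Aiv (−4.41 or lower). Tracheal markers did not follow: 0 of 7 passed 2-fold and the median was 0.61, range 0.49 to 0.79. They were uif (0.98), serp (0.92), verm (0.73), pio (0.61), Gasp (0.35), btl (−0.18) and kni (−0.76).

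The part of these tissues in any lower value was not tested. In such bulk samples fewer cells of a type and less RNA per cell cannot be told apart. For many of the genes below that were lower in scrib tumors, levels in the Sras arrays are given, since the summed signals of salivary gland, muscle and fat body markers were lower in those arrays than in control too.

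**Figure D2:**
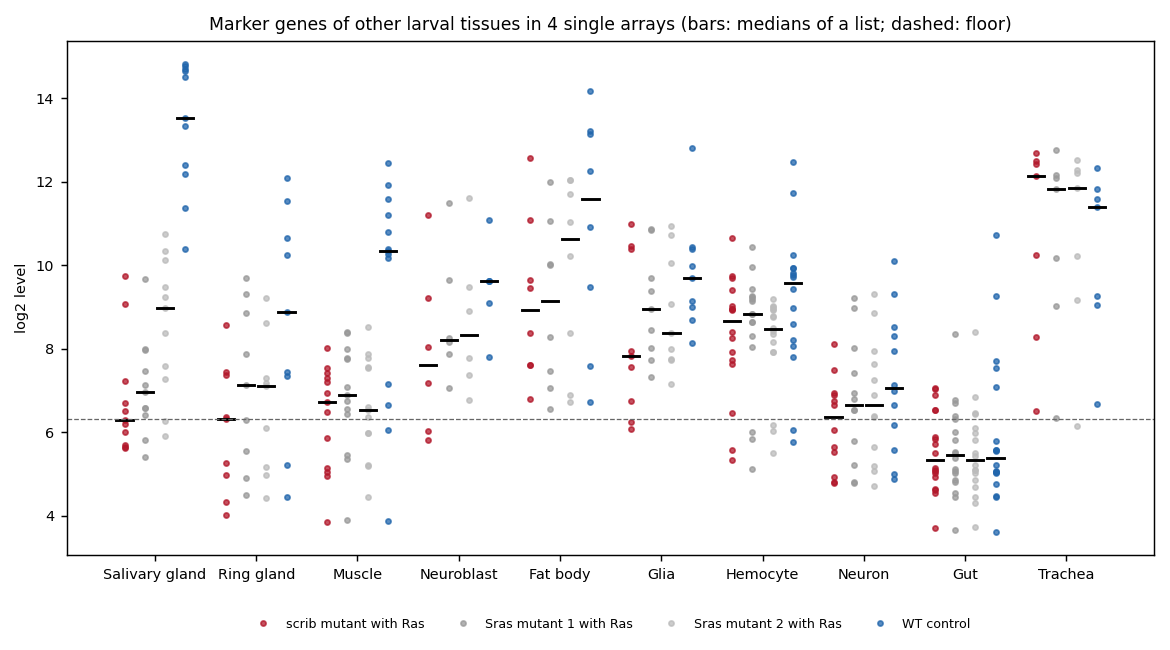
Log2 levels of marker genes for 10 other larval tissues in the scrib mutant with Ras, Sras mutant 1 with Ras, Sras mutant 2 with Ras and WT control arrays; each point is a gene, each bar the median of a list and the dashed line the floor. The median of the WT control array is the highest of the 4 for salivary gland, ring gland, muscle, neuroblast, fat body, glia, hemocyte and neuron markers, and not for gut or tracheal ones.

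JNK signalling runs from the TNF-like ligand Eiger through its receptors and a kinase cascade to the AP-1 factors encoded by Jra (Jun) and kay (Fos). The cascade counted 2 of 16 genes at least 2-fold higher and 0 lower (median 0.25, range 0.25 to 0.45). These were kay, at 11.32 in the scrib array against 9.66 in the WT control array, and the receptor gene grnd, at 11.53 in scrib and 10.04 in WT control. Jra (0.93) and puc (0.89), the phosphatase gene through which JNK limits itself, came close to 2-fold. The ligand gene egr read 9.08 in scrib and 9.84 in WT control (−0.76). The other receptor gene, wgn, read 9.34 in scrib and 9.27 in WT control. Of the kinase genes, hep read 8.82 in scrib and 8.65 in WT control and bsk, the JNK gene itself, 10.98 in scrib and 11.48 in WT control (−0.50), so these 4 genes lay within 2-fold of control.

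Genes known as outputs of JNK and AP-1 were higher for all but 2 measured members: 11 of 13 were at least 2-fold higher and 0 lower, with a median of 2.09. Besides Ilp8, Gadd45 and Ets21C, they included ftz-f1, a nuclear receptor gene (9.63 in scrib and 6.39 in WT control, 3.23), and the bZIP factor genes Atf3 (9.51 in scrib and 7.30 in WT control, 2.21) and Irbp18 (11.40 in scrib and 9.50 in WT control, 1.91). The serine protease homologue gene scaf read 11.42 in scrib and 9.77 in WT control (1.66) and Pax, the paxillin gene of focal contacts, 10.70 in scrib and 9.67 in WT control (1.04). The ligand genes upd1, upd2 and Pvf1, given below, also counted among the higher ones. With Ilp8 they count again in the list of secreted factors, and upd1 and upd2 in the JAK/STAT list. The filamin gene cher (0.76) and puc did not reach 2-fold. The Sras arrays also lay above control for Gadd45, at 9.65 and 10.52, and for Ets21C, at 8.24 and 9.03, with the scrib array higher in both genes. For Ilp8 the Sras arrays read 12.25 and 12.56, above the scrib array. The gene Mmp1 was not analysed here.

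The JAK/STAT pathway carries cytokines of the Unpaired family through the receptor Domeless to Stat92E. The ligand gene upd1 read 8.93 in the scrib array against 6.69 in the WT control array (2.24), and upd2 read 8.02 in scrib and 5.62 in WT control (1.71 or more). The Sras arrays stood above the scrib array for both ligands, with 10.40 and 10.88 for upd1 and 8.24 and 8.89 for upd2. The receptor gene dome (10.32 in scrib and 9.84 in WT control, 0.48) and Stat92E (10.38 in scrib and 10.16 in WT control, 0.22) lay within 2-fold of control. Of targets and partners, ken (2.05), chinmo (1.53) and apt (1.41) passed 2-fold, whereas the inhibitor genes Ptp61F (0.25) and Socs16D (−0.01) and the gene zfh2 (−0.28) did not. The stricter floor brought upd2 to 0.38 and apt to 0.92, both short of 2-fold. In all, 5 of 11 measured genes were at least 2-fold higher and 0 lower (median 0.48, range 0.38 to 0.74).

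Secreted factors known from tumor-bearing larvae went both ways. ImpL2, an insulin-binding protein gene linked to wasting of the host, read 14.41 in the scrib array against 11.70 in the WT control array (2.71), and the Sras arrays read 12.54 and 13.14. The PDGF/VEGF-like ligand genes Pvf1 (10.48 in scrib and 8.39 in WT control, 2.09) and Pvf2 (10.97 in scrib and 8.93 in WT control, 2.04) and their receptor gene Pvr (9.95 in scrib and 8.70 in WT control, 1.25) were all at least 2-fold higher. By contrast the growth factor genes Idgf3 (9.48 in scrib and 11.47 in WT control), Idgf1 (−1.79), Idgf2 (−1.53) and Idgf6 (−1.46) were lower, and in the Sras arrays Idgf3 read 9.22 and 9.05. The list counted 8 of 15 genes at least 2-fold higher and 4 lower (median 1.71, range 0.38 to 2.09), and its median was the bound of upd2. Of the higher ones, Ilp8, upd1, upd2 and Pvf1 are in the list of JNK outputs too, so these lists are not separate results. Of FGF, PVF and Alk genes 4 of 11 were higher and 2 lower. The lower ones were htl, an FGF receptor gene of mesoderm (5.92 in scrib and 8.35 in WT control), and Alk (5.24 in scrib and 7.91 in WT control). Both calls were lost with the stricter floor, which brought htl to −0.71 and Alk to −0.27.

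**Figure D3:**
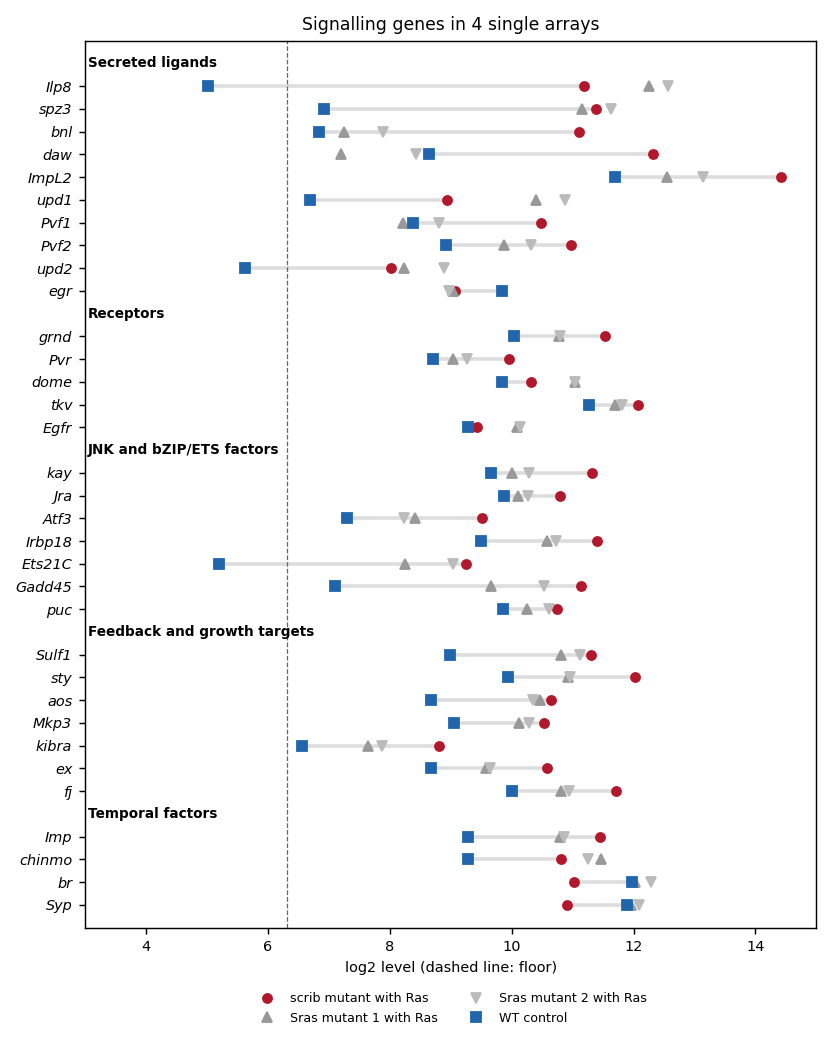
Log2 levels of signalling genes in 4 single arrays: scrib mutant with Ras (circles), Sras mutant 1 and Sras mutant 2 with Ras (triangles) and WT control (squares), with the floor dashed. Of the ligand genes drawn, egr alone reads lower in the scrib array than in WT control, and bnl, daw and Pvf1 are high in the scrib array alone, at 11.11, 12.32 and 10.48.

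Ras acts downstream of the EGF receptor, and its pathway is held in check by inhibitors that it induces. The 5 members at least 2-fold higher were mostly such inhibitors. The gene sty (Sprouty) read 12.02 in the scrib array against 9.94 in the WT control array (2.07). The gene aos (Argos), a secreted inhibitor, read 10.65 in scrib and 8.68 in WT control (1.97). The phosphatase gene Mkp3 read 10.53 in scrib and 9.06 in WT control (1.47). With these stood kek1 (9.62 in scrib and 8.23 in WT control, 1.39) and the sulfatase gene Sulf1 (11.30 in scrib and 8.99 in WT control, 2.31). The receptor gene Egfr itself read 9.43 in scrib and 9.28 in WT control (0.15). The ligand gene spi (0.50), the MAPK kinase gene Dsor1 (−0.47) and the repressor gene aop (0.85) also lay within 2-fold. On the low side, 14-3-3zeta, an adaptor gene of Raf, read 8.81 in the scrib array against 11.58 in the WT control array (−2.77) with 10.56 and 10.38 in the Sras arrays, and its relative 14-3-3epsilon read 13.85 in scrib and 13.84 in WT control. The ligand gene grk was lower too (−1.03), a call lost with the stricter floor, which brought grk to −0.01. The list counted 5 of 26 genes at least 2-fold higher and 2 lower (median 0.24, range 0.12 to 0.35). Ras85D was not analysed here.

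Growth control by the Hippo pathway keeps the co-activator Yorkie in check, and Yorkie in turn raises several upstream Hippo genes. Of 8 measured Yorkie targets, 3 were at least 2-fold higher and 0 lower (median 0.80). They were kibra (8.80 in the scrib array against 6.56 in the WT control array, 2.24), ex (10.59 in scrib and 8.67 in WT control, 1.91) and fj (11.72 in scrib and 10.01 in WT control, 1.71), and crb (0.91) was close to 2-fold, while Mer (0.70), dlp (0.47), vg (below the floor in both) and CycE (−0.06) stood nearer to control. The core kinase genes hpo (−0.19) and wts (0.43) and yki itself (0.03) lay near control. Over the pathway core the count was 3 of 13, the same 3 genes, with a median of 0.14, range 0.14 to 0.39.

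Notch targets were lower in part. E(spl)mdelta-HLH, a repressor gene that Notch induces behind the furrow, read 8.14 in the scrib array against 10.51 in the WT control array (−2.38) with 11.35 and 11.03 in the Sras arrays. E(spl)m4-BFM (8.03 in scrib and 10.15 in WT control, −2.13) and E(spl)malpha-BFM (−1.13) were lower, and so was neur (−1.18), a ubiquitin ligase gene of Delta signalling. In contrast E(spl)mbeta-HLH read 11.41 in scrib and 11.47 in WT control, E(spl)m3-HLH differed by 0.98, and fng, the glycosyltransferase gene that tunes the receptor, was higher (12.71 in scrib and 11.12 in WT control, 1.59). The probe sets of mam disagreed (−1.16, and 0.55 or more), and centring each array on its median moved E(spl)malpha-BFM to −0.92. The list counted 1 of 13 genes at least 2-fold higher and 5 lower (median −0.59, range −0.59 to −0.18), and the genes for Notch, Delta and Serrate were not analysed here.

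In the Dpp and activin pathways 1 of 20 genes was at least 2-fold higher, the ligand gene daw, and 3 were lower. The lower ones were the receptor gene wit (7.46 in scrib and 9.80 in WT control), the other activin ligand gene Actbeta (5.66 in scrib and 8.26 in WT control) and bi (7.49 in scrib and 9.83 in WT control), a T-box gene that Dpp induces and that read 10.65 and 10.48 in the Sras arrays. Raising the floor moved Actbeta to −0.62. The ligand gene dpp (0.72), its receptor gene tkv (0.80) and the feedback gene Dad (0.01) stayed within 2-fold. Of the 7 Wingless pathway genes that could be read, 1 passed 2-fold, the feedback gene Notum (7.63 in scrib and 6.41 in WT control, 1.22), and Wnt6 (0.64), a ligand gene, dlp (0.47), por (0.22), wls (0.04), nkd (−0.11) and Axn (−0.19) did not. The call of Notum was lost in the values as deposited, which brought Notum to 0.83, after centring, which brought Notum to 0.98, and with the stricter floor, which brought Notum to 0.00.

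Insulin and Tor genes counted 5 of 13 genes at least 2-fold higher and 2 lower (median 0.85). REPTOR, a transcription factor gene restrained by Tor, read 9.81 in the scrib array against 7.20 in the WT control array (2.61), S6k 10.74 in scrib and 9.38 in WT control (1.36) and foxo 7.69 in scrib and 6.56 in WT control (1.13), and the receptor gene InR (0.85) fell short of 2-fold. The stricter floor moved foxo to 0.04. In the Toll pathway 3 of 19 genes were higher and 2 lower (median 0.49, range 0.17 to 0.49). Against spz3, the founding ligand gene spz read 7.15 in scrib and 8.98 in WT control (−1.84) and spz6 6.52 in scrib and 9.15 in WT control (−2.63). The NF-kB gene dl read 9.78 in scrib and 7.90 in WT control (1.88), though its other probe set gave −0.08 or lower. The neurotrophin-like gene NT1 was higher (1.45 or more). Antimicrobial peptide genes counted 1 of 9 genes at least 2-fold higher and 1 lower (median 0.06, range 0.00 to 0.06). Mtk was higher (7.69 in scrib and 5.97 in WT control) and Drsl5 was lower (5.75 in scrib and 9.85 in WT control). Drs read 9.09 in scrib and 8.24 in WT control (0.85). Raising the floor moved Mtk to 0.05 and NT1 to 0.12.

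None of 16 apical-basal polarity genes was 2-fold lower and 1 was higher, l(2)gl, the partner of scrib, at 11.61 in the scrib array against 9.79 in the WT control array (1.82). The apical genes sdt (0.98), crb (0.91) and baz (0.81) lay above control by less than 2-fold, dlg1 read 9.48 in scrib and 9.28 in WT control with another probe set over 2-fold higher (1.35), aPKC 10.64 in scrib and 10.65 in WT control and Patj 9.11 in scrib and 9.13 in WT control, and the median was 0.49. For par-1, counted at −0.09, the other probe sets above the floor in scrib tumors read 1.24, 1.18 or more and 0.74. Junction genes counted 2 of 20 genes at least 2-fold higher and 0 lower (median 0.50). Higher ones were Nrg (1.07) and cno (1.04). Another probe set of Nrg was higher too (1.32), and its dimmest went the other way (−0.88). The E-cadherin gene shg read 9.69 in scrib and 8.91 in WT control (0.77). The gene pyd was counted by its brightest probe set (0.62), while its dimmer ones above the floor were over 2-fold higher (1.27, 1.14 and 1.36). Averaging over probe sets brought Nrg to 0.50 and cno to 0.58, both short of 2-fold. The other probe set of cno was below the floor in both arrays.

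Matrix genes counted 1 of 18 genes at least 2-fold higher and 7 lower. Tig, which encodes Tiggrin, an integrin ligand of the matrix, read 11.33 in the scrib array against 8.07 in the WT control array (3.25), while the median of the list was −0.42, range −0.48 to −0.26. The collagen IV genes Col4a1 (8.73 in scrib and 10.11 in WT control, −1.38) and vkg (9.11 in scrib and 10.42 in WT control, −1.31) and SPARC (−1.08) were lower. They are known products of fat body and hemocytes, some of whose markers were lower too (7 of 16 hemocyte and 5 of 8 fat body markers). The part of these tissues in the lower values was not tested. Also lower were Mp (−2.58), a collagen gene whose other probe set went the other way (0.36 or more), and Pxn (−1.38), the peroxidasin gene. The probe sets of trol disagreed: it was counted at −0.94, another read −0.48, and another was over 2-fold higher (2.02, at 9.76 in scrib and 7.73 in WT control). Col4a1 read 9.07 and 8.83 in the Sras arrays. The matrix protease gene Mmp2 read 8.62 in scrib and 9.84 in WT control (−1.22), with 11.04 and 11.02 in the Sras arrays. Of its inhibitor genes, Timp read 9.47 in scrib and 8.95 in WT control (0.52) and Reck 6.31 in scrib and 8.72 in WT control (−2.41 or lower). The mean over probe sets moved Mmp2 to −0.61 and Pxn to −0.715, and centring moved SPARC to −0.87. The other probe sets of Mmp2 and Pxn were below the floor in both arrays. Laminin genes stayed near control, with LanA at 0.33, LanB1 at 0.31 and LanB2 at 0.12.

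Integrin complex genes were higher for 4 of 15 and lower for 0 (median 0.63). The shared beta subunit gene mys read 11.72 in the scrib array against 10.62 in the WT control array (1.10), the tensin gene by 9.60 in scrib and 8.18 in WT control (1.42), stck (PINCH) 12.66 in scrib and 11.52 in WT control (1.14) and Pax 1.04. The mean over probe sets moved mys to 0.98. The alpha subunit gene ItgaPS4 was below the floor in scrib tumors and in control (4.24 in scrib and 5.03 in WT control) but read 7.95 and 8.69 in the Sras arrays. Actin regulators showed 0 of 11 genes past 2-fold, with a median near 0 that changed sign with the processing.

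Retinal determination genes counted 0 of 9 genes at least 2-fold higher and 3 lower. The other members lay within 2-fold of control or below the floor. The Pax6 gene toy read 11.42 in the scrib array against 10.54 in the WT control array (0.88) and its relative ey 9.37 in scrib and 8.66 in WT control (0.71), with Optix at 0.77, eyg at 0.59 and tsh at −0.13, and tio was below the floor in both arrays. The phosphatase and co-activator gene eya read 6.62 in the scrib array against 9.64 in the WT control array (−3.02). The gene of its DNA-binding partner, so, read 6.56 in scrib and 8.55 in WT control (−1.99). The nuclear factor gene dac read 7.97 in scrib and 10.65 in WT control (−2.68). The Sras arrays read 11.13 and 10.83 for eya, 10.25 and 10.04 for so and 11.03 and 10.70 for dac, so the scrib array stood lowest of the 4 for these genes. The stricter floor moved so to −0.91.

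The proneural gene ato, which starts photoreceptor formation, read 7.22 in the scrib array against 9.29 in the WT control array (−2.06) and 9.69 and 9.78 in the Sras arrays. The gene sens read 5.59 in scrib and 8.24 in WT control (−1.93 or lower). The zinc-finger gene gl, used by all photoreceptors, read 6.50 in scrib and 9.12 in WT control (−2.62) and 10.35 and 10.17 in the Sras arrays. The furrow signal gene hh read 8.04 in scrib and 8.70 in WT control (−0.67). The Hedgehog receptor gene ptc, also a target of the pathway, read 7.41 in scrib and 5.89 in WT control (1.10 or more), and the Hedgehog effector gene ci 12.53 in scrib and 11.54 in WT control (1.00). Raising the floor moved sens to −0.595 and ptc to 0.00. Furrow genes counted 1 of 11 genes at least 2-fold higher and 3 lower, with a median near 0 that changed sign with the processing.

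Photoreceptor, cone and pigment cell genes counted 0 of 21 genes at least 2-fold higher and 8 lower (median −0.69, range −0.90 to −0.32). The neuronal gene elav read 8.10 in the scrib array against 10.09 in the WT control array (−1.99), pros, of cone cells and R7, 7.01 in scrib and 10.05 in WT control (−3.04), the sodium pump gene nrv3 8.29 in scrib and 11.28 in WT control (−2.99) and the receptor kinase gene sev 6.57 in scrib and 8.02 in WT control (−1.45). Also lower were onecut (−2.46 or lower), svp (−2.28) and futsch (−1.06). The median of the list was the bound of lz. The stricter floor moved sev to −0.38 and futsch to −0.31, and the mean over probe sets svp to 0.00. The other probe sets of svp were below the floor in both arrays. The genes elav and pros are also active in brain, and both Sras arrays read below control for elav (9.22 and 9.30) and for pros (8.46 and 8.35). For sev the Sras arrays read 8.81 and 8.51, above control. The adhesion gene rst read 9.70 in scrib, 11.69 and 11.70 in the Sras arrays and 10.52 in WT control, and chp 7.70 in scrib, 10.84 and 10.63 in the Sras arrays and 7.93 in WT control. No member was counted as 2-fold higher in scrib tumors, and sdk (0.91) and ct (0.94 or more) came nearest.

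Antennal and head genes went both ways, with 2 of 17 genes at least 2-fold higher and 6 lower (median 0.30, range 0.00 to 0.30). Dll, which marks distal appendages, was lower and read 7.47 in the scrib array against 9.72 in the WT control array (−2.25), dan 6.67 in scrib and 8.91 in WT control (−2.24), danr 7.49 in scrib and 10.01 in WT control (−2.52) and bab2 7.61 in scrib and 10.30 in WT control (−2.69). The Sras arrays read 10.10 and 10.25 for Dll and 10.53 and 10.41 for danr. The other lower genes were Antp (−1.06 or lower) and en (−1.06). Centring brought en to −0.90. The higher genes were Lim1 (10.43 in scrib and 8.25 in WT control, 2.18) and oc, or orthodenticle (9.05 in scrib and 7.12 in WT control, 1.94). Within 2-fold or below the floor in both stood ems (0.78), caup (0.76), al (0.67), mirr (0.56), ss (0.43), pnr (0.32), ara (0.30), bab1 (−0.72 or lower) and otp (below the floor in both). Peripodial and margin genes counted 3 of 7 genes at least 2-fold higher and 0 lower (median 0.89), the higher ones being the odd-skipped family genes drm (1.55), sob (1.32) and odd (1.14), with puc (0.89), lin (0.56), bowl (−0.25) and zfh2 (−0.28) within 2-fold.

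Of the Hox genes, Dfd, which the head part of the disc uses, read 8.47 in the scrib array against 7.13 in the WT control array (1.34), with 8.93 and 9.06 in the Sras arrays. Raising the floor moved Dfd to 0.82 and Antp to 0.00. Scr (6.91 in scrib and 10.16 in WT control, −3.25) and Antp (4.40 in scrib and 7.37 in WT control, −1.06 or lower) were lower, pb lay below the floor in both, and the other 4 were not analysed here. Both lower genes were also lower in the Sras arrays than in control, with 7.47 and 8.40 for Scr and 4.28 and 4.47 for Antp. Scr is a known gene of the salivary gland and labial segment, and salivary gland markers were low in the tumor arrays. The part of that gland in the lower Scr value was not tested. Among Polycomb and Trithorax group genes 1 of 14 passed 2-fold, escl (9.05 in scrib and 7.25 in WT control, 1.79), and the median was near 0 and changed sign with the processing. Wing and leg identity genes passed 2-fold for 0 of 12, with 4 below the floor in both arrays.

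**Figure D4:**
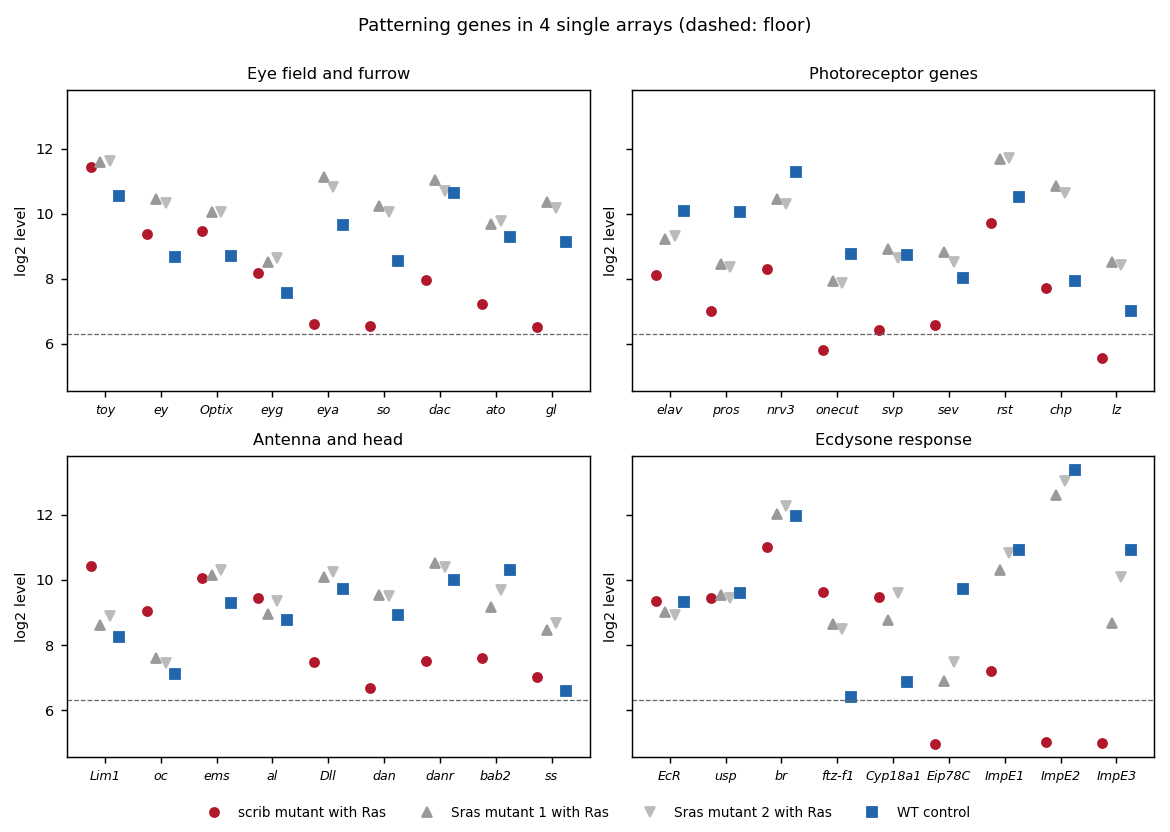
Log2 levels of eye, antennal, head and ecdysone response genes in the scrib mutant with Ras (circles), Sras mutant 1 and 2 with Ras (triangles) and WT control (squares) arrays, with the floor dashed. The scrib circles are above WT control for toy, ey and Optix and lowest of the 4 for eya (6.62), so (6.56), gl (6.50) and ImpE2 (5.01).

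The steroid ecdysone times the end of larval life. Of its response genes, 6 of 21 were at least 2-fold lower in scrib tumors and 2 higher (median −0.25, range −0.69 to −0.07). ImpE2, an ecdysone-induced disc gene, read 5.01 in the scrib array against 13.38 in the WT control array, at least 135-fold lower, and 12.63 and 13.05 in the Sras arrays. ImpE1 read 7.20 in scrib and 10.92 in WT control (−3.73) with 10.30 and 10.82 in the Sras arrays, ImpE3 4.98 in scrib and 10.93 in WT control with 8.69 and 10.08, and Eip78C 4.96 in scrib and 9.73 in WT control with 6.89 and 7.47. The receptor genes did not differ by 2-fold, with EcR at 9.36 in scrib and 9.31 in WT control (0.05) and usp at 9.45 in scrib and 9.60 in WT control (−0.16). Edg91 (−3.78 or lower) and E23 (−1.39) were lower too. Higher were ftz-f1 and Cyp18a1, the gene of an enzyme that breaks down ecdysone (9.48 in scrib and 6.86 in WT control, 2.63).

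The early factors Imp, an RNA-binding protein gene, and chinmo read 11.45 in the scrib array against 9.28 in the WT control array (2.17) and 10.80 in scrib and 9.28 in WT control (1.53). The late factors br and Syp read 11.02 in scrib and 11.98 in WT control (−0.96) and 10.91 in scrib and 11.89 in WT control (−0.98), just short of 2-fold lower, and the 5 probe sets of br ranged from −2.64 to −0.34. The other probe set of Syp went the other way (0.76). In the Sras arrays Imp (10.79 and 10.86) and chinmo (11.46 and 11.25) were likewise above control but br (12.02 and 12.28) and Syp (11.96 and 12.08) were not lower. The list counted 2 of 9 genes at least 2-fold higher and 0 lower, and its median was near 0 and changed sign with the processing.

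Of 15 glycolysis genes 5 were at least 2-fold higher and 1 lower (median 0.43). Pfk, the committed step, read 12.19 in the scrib array against 10.43 in the WT control array (1.76), the hexokinase gene Hex-A 10.60 in scrib and 8.94 in WT control (1.66), Pgi 12.45 in scrib and 11.11 in WT control (1.34), Ald1 12.75 in scrib and 11.63 in WT control (1.12) and Hph, a prolyl hydroxylase gene that senses oxygen, 11.71 in scrib and 9.87 in WT control (1.84). The Sras arrays read 10.46 and 10.80 for Pfk and 10.09 and 10.12 for Hph. Glut1, a transporter gene with 3 probe sets, was lower in its brightest one (6.51 in scrib and 8.11 in WT control, −1.60), and the stricter floor brought Glut1 to −0.47. Among transporters 4 of 16 genes were higher and 3 lower: the trehalose transporter gene Tret1-1 read 11.29 in scrib and 8.94 in WT control (2.35), and the amino acid transporter genes JhI-21 (2.26), mnd (2.26) and path (2.24) were higher. The lower ones, besides Glut1, were sbm (−2.64) and kcc (−1.96). In the Sras arrays mnd read 9.96 and 10.23 and path 10.35 and 10.64, close to control. Respiratory chain genes passed 2-fold for 0 of 16, the widest being SdhD (−0.41), with a median near 0 that changed sign with the processing.

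Of 34 glutathione S-transferase genes 12 were at least 2-fold higher and 3 lower (median 0.37, range 0.15 to 0.55), led by GstE6 (11.62 in the scrib array against 8.32 in the WT control array, 3.30), GstD9 (2.13) and GstE1 (2.04), while GstZ2 (−3.62 or lower) and GstE14 (−3.27 or lower) were lower. Cytochrome P450 genes counted 9 of 81 genes at least 2-fold higher and 7 lower, with 49 below the floor in both arrays. Of antioxidant genes 1 of 9 passed 2-fold, the thioredoxin reductase gene Trxr1 (1.10), with the glutathione synthesis genes Gclc (0.95) and Gclm (0.94) close behind and the regulator gene cnc at 0.03.

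In the endoplasmic reticulum list 4 of 18 genes were higher: the sensor kinase genes PEK (10.96 in the scrib array against 9.40 in the WT control array, 1.56) and Ire1 (9.25 in scrib and 7.56 in WT control, 1.69), Ero1L (10.77 in scrib and 9.05 in WT control, 1.72) and Sil1 (9.73 in scrib and 8.05 in WT control, 1.68). The other probe set of Ire1 gave 0.02 or more (6.33 in scrib and 5.19 in WT control). The chaperone genes Hsc70-3 (−0.35), Gp93 (−0.30) and Cnx99A (−0.71) were not, and 0 genes were 2-fold lower (median −0.04, range −0.13 to −0.01). Of 7 heat shock genes 3 were higher, the co-chaperone gene stv (2.66), Hsp26 (2.12) and Hsp68 (2.08), and Hsp27 was lower (11.97 in scrib and 13.76 in WT control, −1.79). The other members, DnaJ-1 (0.84), Hsf (0.82) and Hsc70-4 (0.15), stayed within 2-fold. Proteasome genes passed 2-fold for 0 of 40 (median −0.24, range −0.29 to −0.14), and this family includes 13 genes under the floor in both arrays. Autophagy and lysosome genes counted 2 of 19 genes at least 2-fold higher and 3 lower (median −0.13, range −0.17 to −0.02). The lower ones were LManII (−4.07), the beta-galactosidase gene Gal (6.56 in scrib and 9.75 in WT control, −3.19) and Npc2a (−1.98), and the higher ones Mitf (1.20) and the autophagy receptor gene ref(2)P (1.07). The stricter floor moved Mitf to 0.54.

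None of 18 DNA replication genes and none of 16 mitosis genes passed 2-fold (median 0.20, range 0.20 to 0.40 for replication, and median 0.33, range 0.26 to 0.55 for mitosis): PCNA read 12.02 in the scrib array against 11.86 in the WT control array, Mcm5 10.67 in scrib and 10.44 in WT control and aurB 10.20 in scrib and 10.17 in WT control. Of 12 cell cycle regulators 1 was higher, trbl, a pseudokinase gene that restrains division (10.30 in scrib and 8.89 in WT control, 1.41), and 1 lower, fzr (8.50 in scrib and 9.95 in WT control, −1.45), which is needed to leave the cycle. CycE (−0.06), CycB (0.23) and Cdk4 (0.31) lay near control. Ribosome biogenesis genes passed 2-fold for 0 of 14 (median 0.53). Ribosomal protein genes counted 2 of 41 genes at least 2-fold higher and 0 lower (median 0.09, range 0.07 to 0.29). The 2 were the variant genes RpL24-like (1.05) and RpL22-like (1.04 or more). Raising the floor brought RpL22-like to 0.00.

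Damage checkpoint, recombination and end-joining genes counted 7 of 18 genes at least 2-fold higher and 0 lower (median 0.83). The end-joining genes Irbp (Ku70) and Ku80 read 9.54 in the scrib array against 7.59 in the WT control array (1.95) and 9.72 in scrib and 8.32 in WT control (1.40), DNAlig4 8.84 in scrib and 7.13 in WT control (1.70), and the break-sensing genes rad50 (1.45), mre11 (1.40) and tefu (1.06) were higher as well. Of the Fanconi list, whose pathway repairs DNA crosslinks and stands in the series title, 4 of 14 genes were at least 2-fold higher and 0 lower (median 0.78, range 0.41 to 0.82). These were the polymerase genes PolZ1 (9.15 in scrib and 7.39 in WT control, 1.76) and PolQ (8.04 in scrib and 6.34 in WT control, 1.71), FANCI (8.19 in scrib and 6.78 in WT control, 1.40) and Fancm (7.82 in scrib and 6.77 in WT control, 1.04). Fancd2, the partner of FANCI, read 8.71 in scrib and 7.93 in WT control (0.78), Fancl 7.86 in scrib and 6.99 in WT control (0.87) and mus81 7.82 in scrib and 7.90 in WT control (−0.08). With the stricter floor 3 of the 4 calls were lost, which brought PolQ to 0.40, FANCI to 0.54 and Fancm to 0.18. The values as deposited brought Fancm to 0.64. In the Sras arrays PolZ1 read 8.71 and 9.06 and FANCI 7.98 and 7.82, between control and scrib.

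Cell death genes showed no common direction, with 1 of 13 genes at least 2-fold higher and 2 lower (median 0.19, range 0.03 to 0.27). The gene p53 read 10.48 in the scrib array against 9.24 in the WT control array (1.24) and skl, a death-inducing gene, 5.16 in scrib and 8.72 in WT control, a difference of −2.41 or lower, with 7.40 and 6.96 in the Sras arrays. Buffy, a Bcl-2 family gene, was lower (−1.27 or lower). The mean over probe sets moved p53 to 0.705, and the stricter floor Buffy to 0.00. The other probe set of p53 was below the floor in both arrays. The caspase genes Dronc (0.34) and Dcp-1 (0.03) were near control. The genes rpr, hid and Diap1 were not analysed here.

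Cuticle protein genes counted 3 of 103 genes at least 2-fold higher and 19 lower, with 59 below the floor in both, and Lcp9 read 5.03 in scrib, 5.12 and 4.90 in the Sras arrays and 13.76 in WT control. Odorant-binding protein genes counted 0 of 47 genes at least 2-fold higher and 7 lower, with Obp44a at 11.52 in scrib and 14.65 in WT control. Tetraspanin genes counted 2 of 34 genes at least 2-fold higher and 10 lower, the lower ones led by Tsp74F (−2.92) and the higher ones Tsp42Ea (1.54) and Tsp42Ef (1.19). Transcription factor genes associated with epithelial-to-mesenchymal change were not higher, with 0 of 10 genes at least 2-fold higher and 5 lower (median −1.10, range −1.31 to −0.46), and the lower ones (wor, sna, peb, srp and zfh1) include brain and hemocyte genes. Raising the floor moved sna to −0.86 and peb to −0.78. Germline genes were below the floor in both arrays for 9 of 11, and krimp, a piRNA pathway gene, was higher (8.16 in scrib and 6.04 in WT control). Of the odorant and gustatory receptor list 1 of 112 passed 2-fold, Gr61a (7.89 in scrib and 6.72 in WT control). Raising the floor brought krimp to 0.515 and Gr61a to 0.24.

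**Figure D5:**
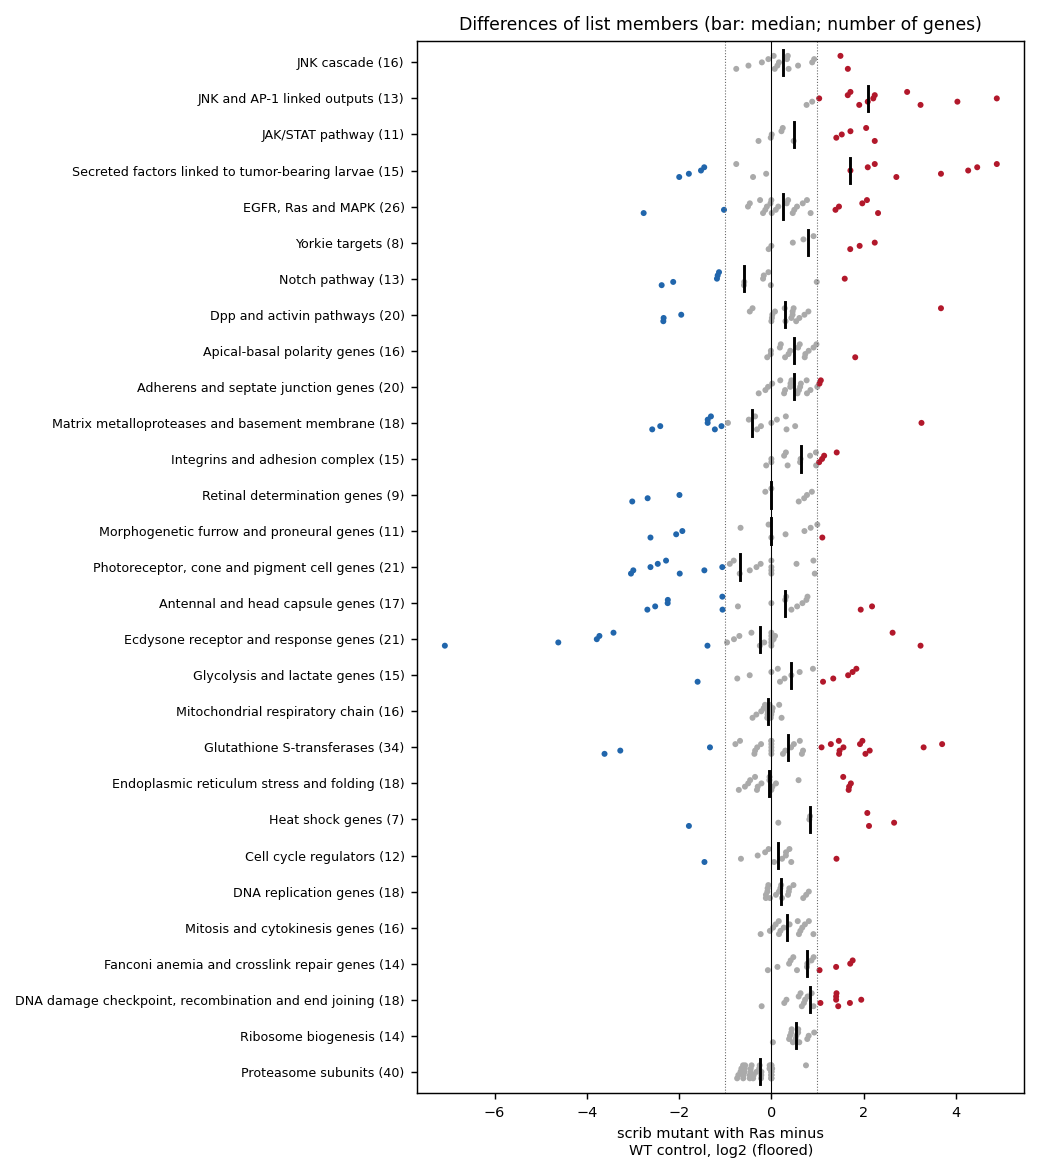
Difference of the scrib mutant with Ras array minus the WT control array, in log2 after raising values to the floor, for each measured member of selected gene lists (number of genes in brackets); red points are at least 2-fold higher, blue at least 2-fold lower, and bars are medians. JNK outputs (median 2.09) and secreted factors (1.71, range 0.38 to 2.09 over settings) have their medians to the right, photoreceptor genes (−0.69, range −0.90 to −0.32) and Notch genes (−0.59, range −0.59 to −0.18) to the left, and replication, mitosis and respiratory chain genes within 2-fold. The JNK output and secreted factor lists share Ilp8, upd1, upd2 and Pvf1.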

How the data were processed

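Expression was measured on Affymetrix Drosophila arrays, 1 array for each of 5 groups, and groups were taken from the sample labels. The deposited values are log2 levels per probe set, by their range of 3.32 to 14.9. The method by which the authors made them and any normalization between arrays were details not given in the sources used here. The medians of the deposited values were 5.92 in the scrib array and 6.07 in the WT control array, so the 4 arrays other than Ras were quantile normalized. Of 18952 probe sets, 183 controls, 402 that name several genes and 4721 that name none were left out. Symbols of 13543 of the other 13646 were updated by gene ID through NCBI RefSeq (Release 6). Each gene was read by its probe set with the highest mean over the 4 arrays, leaving 11981 genes. Values below the 40th percentile of gene levels (6.31) were raised to it, and a difference of 1 log2 unit (2-fold) was counted as higher or lower. With 1 array a side no test was made. Scripts ran in Python 3.11.15 with NumPy 2.4.6, pandas 2.3.3 and matplotlib 3.10.9, and the script was tested on simulated data.

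Genes were named by rule: the 15 highest and 15 lowest differences above the floor, the 10 highest levels among genes below the floor in the other array, all members of lists of up to 8 genes, and in longer lists the ligands, receptors, effectors and members furthest from 0. The members and 63 lists were chosen with earlier results of these data known. Other normalizations, floors, thresholds and a mean over probe sets were tried. The number of arrays, and signal near the floor, limit the precision.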

Additional observations from a re-analysis of the deposited data

Results flagged for a closer look

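Of the genes in the lists, 5 lay at least 2-fold on 1 side of control in the scrib array and at least 2-fold on the other side in both Sras arrays. The difference between the tumors was not tested. For eya the scrib array read 6.62 (−3.02 against control), the Sras arrays 11.13 and 10.83 and the WT control array 9.64. For gl the scrib array read 6.50 (−2.62), the Sras arrays 10.35 and 10.17 and the WT control array 9.12. For so the scrib array read 6.56 (−1.99), the Sras arrays 10.25 and 10.04 and the WT control array 8.55. All 3 act in eye differentiation. The matrix protease gene Mmp2 read 8.62 in scrib (−1.22), 11.04 and 11.02 in the Sras arrays and 9.84 in WT control. The cytochrome P450 gene Cyp28d1 ran the other way, with 9.45 in scrib (1.38), 6.92 and 7.04 in the Sras arrays and 8.07 in WT control. Over all genes 6 more did so: qua (−1.33), retn (−1.39), superdeath (−2.59 or lower) and CG15212 (−1.40) were lower in scrib tumors, and CG13041 (1.40) and CG3348 (1.39) higher.

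Among 4721 probe sets without a gene name, 96 were at least 2-fold higher in the scrib array than in the WT control array and 91 lower.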

How the results depend on the processing

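No paired analysis was possible because each group has 1 array. Genes at least 2-fold higher in scrib tumors numbered 766, against 1799 at a 1.5-fold and 286 at a 3-fold threshold. With the mean of both Sras arrays in place of the control, a setting chosen after seeing the data, 323 were higher and 455 lower, against 957 lower with the control. Lists with a median of 1 or more numbered 2, against 4 with each array centred on its median, 1 with the floor at the 50th percentile and 0 against the Sras mean; those with a median of −1 or less numbered 7, against 1 with the Sras mean. As deposited, 650 genes were higher and 1038 lower. Without the floor the median of all genes was 0.256 after centring, against 0.0644, and with it 0 in both. Of 305 named list and rule genes past 2-fold, 238 passed the same way under all 7 planned settings of normalization, floor and probe set, and 297 kept their sign. The floor at the 50th percentile ended the calls of PolQ, FANCI, Fancm, Notum, so, sev, sens, upd2 and foxo, among others. The mean over probe sets ended those of Mmp2, p53, dl, Nrg, cno, Pxn, mam and svp. For Mmp2, p53, cno, Pxn and svp the other probe sets were below the floor in both arrays. Averaging with them was bound to shrink the difference, so these losses do not show that probe sets disagreed. Signal over background limits the dim genes.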

Other observations

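Several further genes stood out after their values were seen, and they belong to no list above. In folate and amino acid metabolism, Nmdmc, a mitochondrial folate enzyme gene, read 12.68 in the scrib array, a difference of 2.69 from WT control, with 10.22 and 10.17 in the Sras arrays. The transaminase gene Bcat (2.96) and the asparagine synthetase gene AsnS (1.92) were higher too, while the serine synthesis gene aay was lower (−2.57) and Shmt read 0.76. Nox, an NADPH oxidase gene that makes reactive oxygen, read 10.61 in the scrib array against 7.34 in the WT control array (3.26), with 7.97 and 7.97 in the Sras arrays, and its relative Duox differed by 0.78. The sulfhydryl oxidase genes Alr (2.65) and Qsox2 (2.92) were higher.

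The transcription factor genes gsb (3.03), Sox21b (2.47) and fru (3.20) were higher, and the neuronal genes fne (−3.90) and nerfin-1 (−3.62) were lower. The serpin gene Spn43Aa read 5.49 in the scrib array against 12.59 in the WT control array, with 10.60 and 10.89 in the Sras arrays, and the mucin gene Muc96D read 5.31 in the scrib array against 11.75 in the WT control array, with 10.04 and 11.06 in the Sras arrays. Both were below the floor in the scrib array alone.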
